A study of Mus musculus with 6 samples.

Results

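The let-7 family is a set of closely related microRNAs, and the guide strands of let-7a, let-7b, let-7c, let-7d, let-7e, let-7f, let-7g, let-7i and miR-98 were followed here in the nucleus accumbens (NAc) of mice. These 9 guide strands were taken by name as the 5p rows of the deposited miRNA table (mmu-let-7a-5p, mmu-let-7b-5p, mmu-let-7c-5p, mmu-let-7d-5p, mmu-let-7e-5p, mmu-let-7f-5p, mmu-let-7g-5p, mmu-let-7i-5p and mmu-miR-98-5p), and all 9 were found among its 1364 rows. The rule itself uses names only. A miRNA hairpin can give a 5p and a 3p strand, and in the let-7 family the 5p strand is the guide, the strand that is loaded into Argonaute and pairs with target transcripts through its seed, bases 2 to 8. let-7 rises as cells mature and leave the cell cycle, its maturation is blocked by the RNA-binding protein LIN28, and it is among the most abundant miRNA families of adult brain. Its known targets include transcripts of growth and cell-cycle genes and that of the mu opioid receptor, the receptor of morphine.

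The libraries came from adult male C57BL/6N mice, 7 to 8 weeks old, that had been through conditioned place preference (CPP), a test in which a drug is paired with one compartment of a box. The morphine group was conditioned for 6 days with 10 mg/kg morphine and the saline group with saline, and NAc tissue was taken 0.5 h after the test on day 7. Each group had 3 small RNA libraries, and the sources differ on the mice behind them, the series record counting 6 mice for the 3 libraries of a group and the study naming 1 mouse for each library. In such bulk tissue, fewer cells of a type and less of a miRNA per cell cannot be told apart.

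The members are printed here because they share a seed and differ at only a few other bases. The mature sequences are those of RefSeq for GRCm38.p6, read 5′ to 3′, with the seed in capitals.
mmu-let-7a-5p: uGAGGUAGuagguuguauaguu
mmu-let-7b-5p: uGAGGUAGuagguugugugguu
mmu-let-7c-5p: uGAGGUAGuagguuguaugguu
mmu-let-7d-5p: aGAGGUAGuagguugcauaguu
mmu-let-7e-5p: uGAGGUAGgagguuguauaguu
mmu-let-7f-5p: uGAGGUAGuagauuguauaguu
mmu-let-7g-5p: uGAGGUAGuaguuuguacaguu
mmu-let-7i-5p: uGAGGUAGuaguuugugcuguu
mmu-miR-98-5p: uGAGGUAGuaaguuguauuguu

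All 9 are 22 bases long and all 9 have the seed GAGGUAG. Counted from 1 at the 5′ end and written with the base of let-7a first, let-7c differed from let-7a by A19G, let-7e by U9G and let-7f by G12A. let-7b differed by A17G and A19G, let-7d by U1A and U16C, let-7g by G12U and U18C, and miR-98 by G11A and A19U. The member farthest from let-7a was let-7i, with the 4 changes G12U, A17G, U18C and A19U. The counts of single members therefore depend on how reads that match more than 1 of them were assigned, which is not given in the sources used here. If each read was counted for only 1 member, the sum of the 9 members does not depend on how reads were divided among them. Whether reads were counted more than once is not given either.

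The 9 guides come from 12 hairpin genes on 7 chromosomes, with positions given for GRCm38 from GENCODE vM21. let-7a, let-7c and let-7f each have 2 hairpins, so their counts cannot be assigned to 1 gene. Mirlet7a-1 (chr13:48538179-48538272), Mirlet7f-1 (chr13:48537829-48537917) and Mirlet7d (chr13:48536012-48536114) lie on the minus strand in exonic sequence of the long non-coding RNA 6720427I07Rik. Mirlet7c-2 (chr15:85706603-85706697) and Mirlet7b (chr15:85707319-85707403) lie on the plus strand in exonic sequence of Lncppara, 621 bases apart. Mirlet7f-2 (chrX:151912346-151912428) and Mir98 (chrX:151913214-151913321) lie 785 bases apart in intronic sequence of Huwe1, a ubiquitin ligase gene. Mirlet7a-2 (chr9:41536716-41536811) is intronic in 3110039I08Rik, Mirlet7c-1 (chr16:77599657-77599750) in Mir99ahg, Mirlet7e (chr17:17830352-17830444) in Spaca6 and Mirlet7g (chr9:106178840-106178927) in Wdr82. Mirlet7i (chr10:122985640-122985724, minus strand) lies in exonic sequence of the pseudogene D630033A02Rik.

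The libraries held 4183333 to 9842050 counts, and 1 saline library stood apart from the other 2. In miRNAs other than the members, the mean GC content of the mature sequence, weighted by counts, was 47.1% and 47.6% in saline replicates 1 and 3, 40.5% in saline replicate 2, and 43.3% to 44.1% in the morphine group. Results are therefore given with and without saline replicate 2 where it moves them, and its part in them was not tested. Levels are CPM, counts relative to the library size after TMM scaling. The test was the quasi-likelihood F test of edgeR on all 1364 rows, and a miRNA was called a DEmiRNA where |log2 fold change| reached 0.58 with an unadjusted p no higher than 0.05. All 9 members entered it, the smallest count of any member in any library being 440.

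The let-7 family was higher in the morphine group as a whole. The sum of the 9 members was 42352, 100057 and 42740 CPM in saline replicates 1, 2 and 3, and 146694, 135109 and 170375 CPM in morphine replicates 1, 2 and 3. Every morphine library was above every saline library, and saline replicate 2 lay between the groups. The means were 61716 ± 33205 CPM (SD, n = 3) and 150726 ± 17976 CPM (SD, n = 3), a 2.44-fold difference. An exact two-sided permutation test gave p = 0.1, the smallest value that 3 against 3 libraries allow. Without saline replicate 2 the difference was 3.54-fold.

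As a share of all miRNA counts, which needs no scaling between libraries, the family took 5.531%, 8.004% and 5.651% in the saline group and 13.5%, 12.6% and 14.3% in the morphine group. The mean share was 6.40% ± 1.39 (SD, n = 3) against 13.5% ± 0.85 (SD, n = 3), a difference of 7.09 percentage points (exact two-sided permutation test, p = 0.1). The exact 95% binomial intervals of the single shares were at most 0.04998 points wide, and they cover counting error only. In each morphine library 2 members were among the 10 most abundant miRNAs. In the saline group this held for 1 member in replicate 2 and for 0 in the other 2 libraries.

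**Figure D1:**
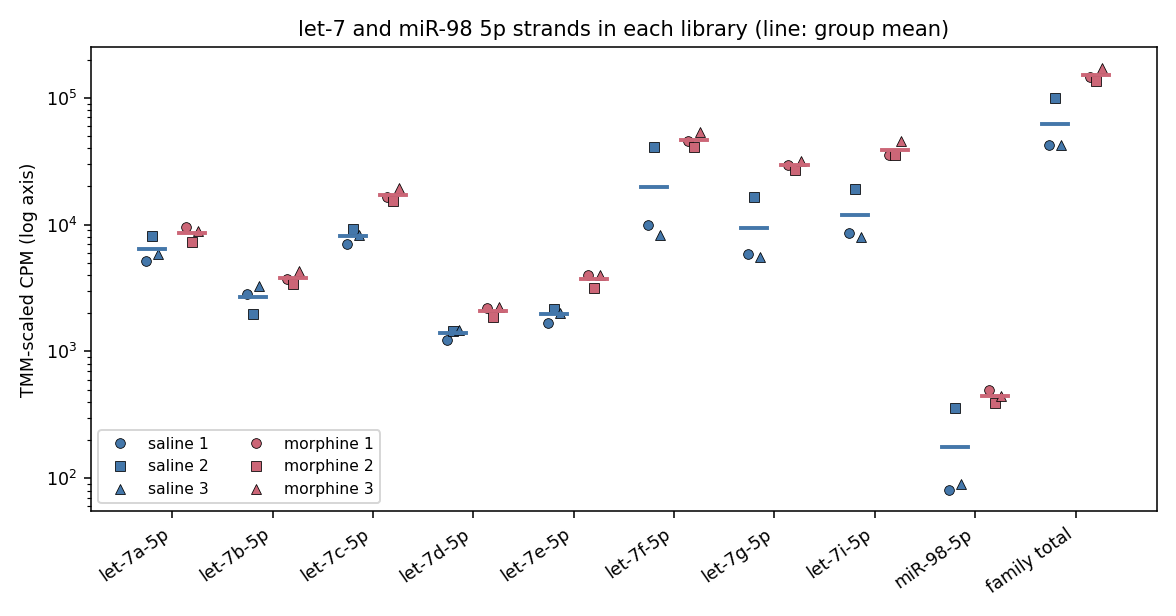
TMM-scaled CPM of each of the 9 members and of their sum (family total), on a log axis, in 3 saline libraries (blue) and 3 morphine libraries (red), with lines at the group means. The family total is at 135109 CPM or more in the 3 morphine libraries, at 100057 CPM in saline replicate 2 and at 42740 CPM or less in the other 2 saline libraries.

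Of the 9 members, 6 were upregulated by the criteria, let-7c, let-7e, let-7f, let-7g, let-7i and miR-98, and the fitted change was above 0 for all 9. Over all rows, 9.68% were called higher and 9.68% called lower, and 0 members were called lower. Among the 88 miRNAs with a mean of at least 1000 CPM, which include 8 of the members, 17.0% were called higher. The median log2 fold change was 1.07 over the members and -0.15 over all rows. Only let-7i had a Benjamini-Hochberg adjusted p under 0.05, while 3.08% of all rows were higher at that threshold. The groups did not overlap for 7 of the 9 members, against 12.2% of all rows with every morphine library above every saline library.

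The largest fitted change belonged to let-7i, which comes from a single hairpin on chromosome 10. let-7i was at 8621, 18956 and 7933 CPM in the saline group and at 35109, 35598 and 45928 CPM in the morphine group. The lowest morphine library was thus well above the highest saline library, replicate 2. The log2 fold change was 1.72 (SE 0.49, 95% interval 0.71 to 2.72, edgeR adjusted p = 0.0406).

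let-7g, made from an intron of Wdr82, followed closely. It was at 5861, 16576 and 5577 CPM in the saline group and 29256, 27083 and 31563 CPM in the morphine group, again without overlap. Its log2 fold change was 1.65 (SE 0.50, 95% interval 0.61 to 2.69, edgeR adjusted p = 0.0510).

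let-7f and miR-98, which each have a hairpin in Huwe1, showed a wide spread within the saline group. let-7f, the most abundant member, was at 9910, 41193 and 8241 CPM in the saline group and 45651, 41050 and 53533 CPM in the morphine group. Saline replicate 2 was above morphine replicate 2, so the groups overlapped, which they did not with library totals in place of TMM. The log2 fold change of let-7f was 1.24 (SE 0.55, 95% interval 0.10 to 2.38, edgeR adjusted p = 0.210).

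miR-98, the least abundant member, was at 80.5, 361 and 90.7 CPM in the saline group and 497, 394 and 442 CPM in the morphine group. Here saline replicate 2 stood just below the lowest morphine library. The log2 fold change of miR-98 was 1.32 (SE 0.55, 95% interval 0.18 to 2.47, edgeR adjusted p = 0.171).

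let-7c and let-7e were called as well, with saline libraries that stood closer together. let-7c was at 6977, 9222 and 8288 CPM in the saline group and 16659, 15306 and 19488 CPM in the morphine group. The 3 saline libraries thus lay close to each other and well below the morphine group, with a log2 fold change of 1.07 (SE 0.44, 95% interval 0.15 to 1.99, edgeR adjusted p = 0.170). let-7e was at 1684, 2169 and 2021 CPM in the saline group and 4026, 3173 and 4012 CPM in the morphine group. It did not overlap either, and its log2 fold change was 0.93 (SE 0.44, 95% interval 0.02 to 1.85, edgeR adjusted p = 0.249).

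The remaining members, let-7a, let-7b and let-7d, did not pass the test. let-7a was at 5172, 8139 and 5835 CPM in the saline group and 9541, 7256 and 8870 CPM in the morphine group. Its groups overlapped at saline replicate 2, and its log2 fold change was 0.42 (SE 0.44, 95% interval -0.50 to 1.34, edgeR adjusted p = 0.584). let-7b was at 2818, 1987 and 3272 CPM in the saline group and 3745, 3373 and 4318 CPM in the morphine group. Among the saline libraries, let-7b was the only member lowest in replicate 2, and its log2 fold change was 0.50 (SE 0.45, 95% interval -0.42 to 1.42, edgeR adjusted p = 0.579). let-7d was at 1228, 1455 and 1483 CPM in the saline group and 2210, 1876 and 2222 CPM in the morphine group. The morphine libraries of let-7b and let-7d were all above the saline ones, and the log2 fold change of let-7d was 0.60 (SE 0.44, 95% interval -0.31 to 1.51, edgeR adjusted p = 0.507). With library totals in place of TMM, the groups of let-7a, let-7b and let-7d all overlapped.

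Which members passed depended on the libraries and on GC content. Without saline replicate 2, 8 of 9 members were called higher, let-7b being the exception, and the same 8 had an edgeR adjusted p under 0.05, against 20.9% and 17.2% of all rows tested. The log2 fold changes were then 2.36 (SE 0.25) for let-7f, 2.36 (SE 0.25) for let-7g, 2.23 (SE 0.25) for let-7i and 2.37 (SE 0.30) for miR-98. In contrast, let-7c at 1.17 (SE 0.24) and let-7e at 1.01 (SE 0.24) stayed close to their values with all 6 libraries.

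The mature GC content of the members ran from 31.8% in let-7f and miR-98 to 45.5% in let-7b. Across the 9 members, the log2 fold change and GC content had a Pearson correlation of -0.37, and across 357 other miRNAs it was -0.24, in both cases over miRNAs that share the same libraries. When the trend with GC content was removed from each library, an alternative chosen after seeing the data, 2 members were still called, with 9.68% of all rows called higher. These were let-7g at 0.94 (SE 0.40) and let-7i at 1.27 (SE 0.41), and the values of let-7a and let-7d fell below 0 to -0.63 and -0.09. let-7f, the most abundant member, was then at 0.37 (SE 0.40). The family total was not computed with the GC trend removed. With no correction, the fitted values of members of equal GC content were not the same, but their intervals overlapped. The difference between such members was not tested, nor was the part of GC content in it. At 36.4% GC, let-7a was at 0.42 and let-7g at 1.65, and at 40.9% GC, let-7d was at 0.60, let-7e at 0.93, let-7c at 1.07 and let-7i at 1.72.

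**Figure D2:**
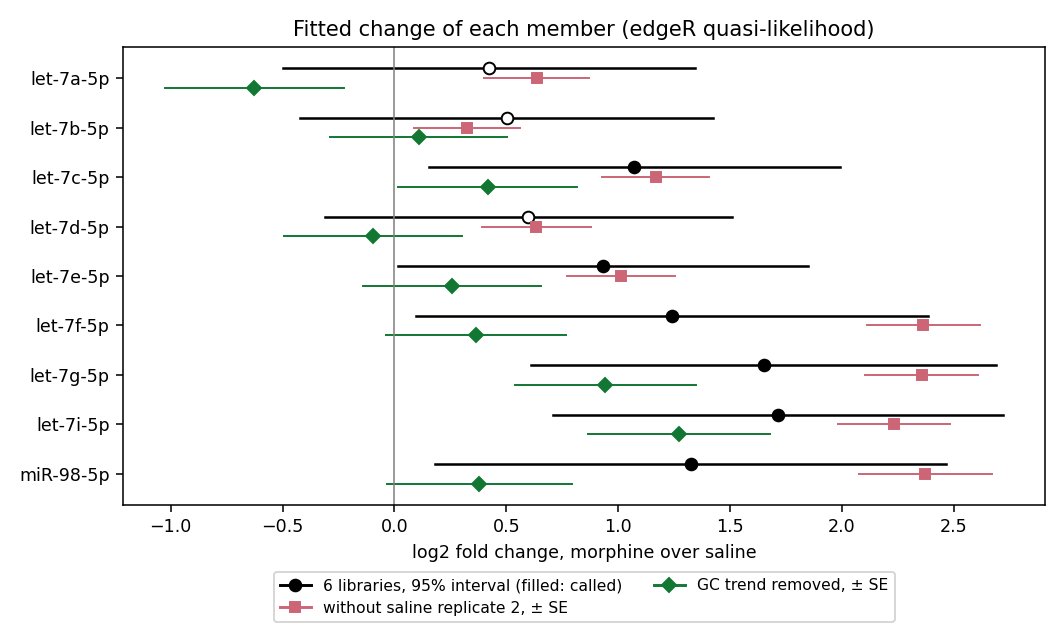
Log2 fold change of each member, morphine over saline, from all 6 libraries with its 95% interval (black, filled where called), without saline replicate 2 (red, ± SE) and after removal of the GC trend (green, ± SE). let-7g and let-7i are above 0.58 under all 3, while let-7a is at 0.42 with all 6 libraries and at -0.63 after GC correction.

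Within the family, the members did not keep the same proportions in the libraries. let-7a took 12.2%, 8.13% and 13.7% of the family counts in the saline group and 6.50%, 5.37% and 5.21% in the morphine group, lower in every morphine library. let-7g took 13.8%, 16.6% and 13.0% in the saline group and 19.94%, 20.04% and 18.53% in the morphine group. let-7i took 20.4%, 18.9% and 18.6% in the saline group and 23.9%, 26.3% and 27.0% in the morphine group. The shares of let-7g and let-7i were thus higher in all 3 morphine libraries. For these 3 members the exact two-sided permutation test gave p = 0.1 (0.3 after adjustment over the 9 members), and the groups overlapped for the other 6.

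When the whole table was tested relative to the let-7 total, so that the family as a whole was held constant, only let-7b passed the criteria. Its relative log2 fold change was -1.10 (SE 0.53, edgeR adjusted p = 0.115), and that of let-7a was -0.99 (SE 0.52, edgeR adjusted p = 0.147). let-7i at 0.42 (SE 0.50) and let-7g at 0.43 (SE 0.50) did not pass. On this scale 33.4% of all rows were called lower and 2.57% higher, and 24.6% had an adjusted p under 0.05, as 0 members did. Without saline replicate 2, let-7a, let-7b, let-7c, let-7d and let-7e were called lower relative to the family, as were 42.3% of all rows tested.

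By the composition of the family, saline replicate 2 was nearer to the morphine group than to the other saline libraries. The root mean square difference of the log2 shares was 0.21 between saline replicates 1 and 3, and 0.08 to 0.21 among the morphine libraries. Saline replicate 2 was 0.30 to 0.39 from the morphine libraries, and 0.91 and 1.07 from the other saline libraries. let-7f alone made up 41.2% of the family in saline replicate 2, against 23.4% and 19.3% in saline replicates 1 and 3 and 30.4% to 31.4% in the morphine group. The share of let-7i went the other way. In saline replicate 2 it was 0.51 points from the mean of the other saline libraries and 6.80 points from the morphine mean. For let-7g these distances were 3.12 and 2.94 points. By total level, saline replicate 2 was below all 3 morphine libraries.

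**Figure D3:**
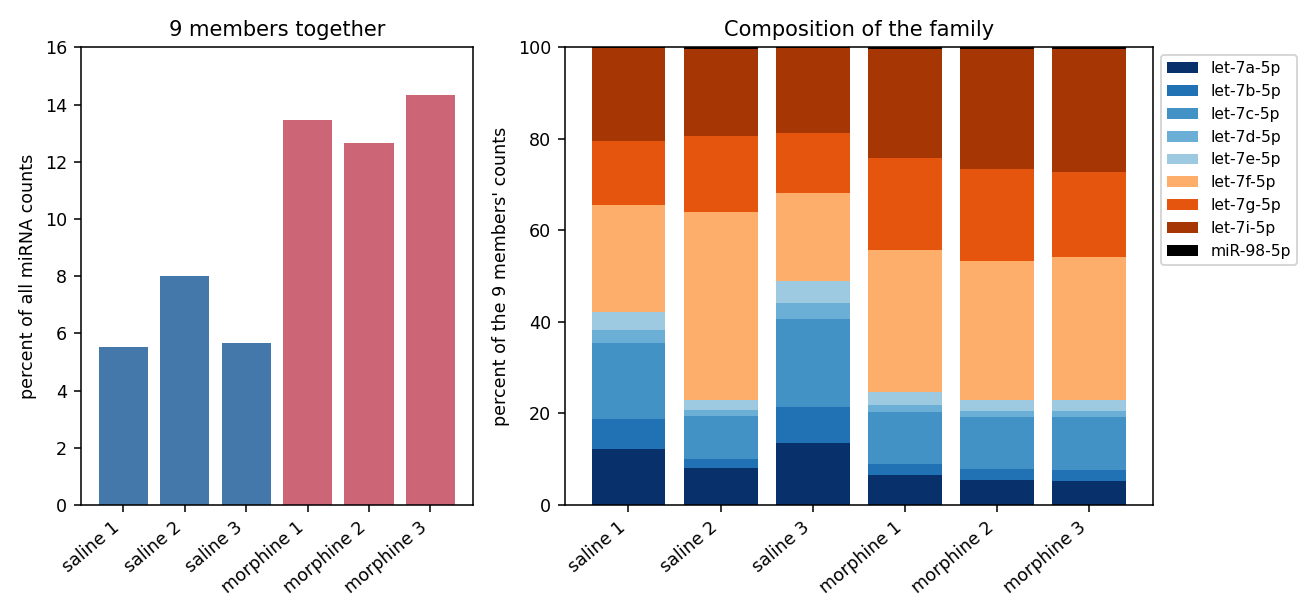
Left, the percent of all miRNA counts taken by the 9 members in each library; right, the percent of the family counts taken by each member (blue shades let-7a to let-7e, orange shades let-7f, let-7g and let-7i, black miR-98). The family takes 12.6% to 14.3% of counts in the morphine libraries and 5.531% to 8.004% in the saline libraries. On the right, the bar of saline replicate 2 is nearer to the morphine bars than to the other saline bars, except in its share of let-7i. On the left it is not.

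With all 6 libraries and TMM scaling, the values of the members separated by the bases at positions 11 and 12, in the middle of the guide, a split chosen after the values were seen and therefore given with no test. let-7a to let-7e have GG there and the other 4 do not. let-7a is shown beside those 4, with positions 11 and 12 in capitals.
mmu-let-7a-5p: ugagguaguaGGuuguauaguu
mmu-let-7f-5p: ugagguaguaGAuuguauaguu
mmu-let-7g-5p: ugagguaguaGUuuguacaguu
mmu-let-7i-5p: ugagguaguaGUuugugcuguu
mmu-miR-98-5p: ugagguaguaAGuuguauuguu

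The 4 members without GG had log2 fold changes of 1.24 to 1.72 and were all called, while the 5 members with GG had values of 0.42 to 1.07 and 2 of them were called, beside the 9.68% of all rows called higher. This separation did not hold under every alternative. With the GC trend removed, let-7f at 0.37 and miR-98 at 0.38 were no longer called and were below let-7c at 0.42. Without saline replicate 1 let-7c at 1.07 was above let-7f at 1.02, and without saline replicate 3 let-7c at 1.16 and let-7e at 1.03 were above let-7f at 0.97. The ratio of the summed counts of the first set to those of the second was 1.37, 3.36 and 1.05 in the saline group and 3.05, 3.36 and 3.38 in the morphine group. The ratio thus overlapped between the groups at saline replicate 2. let-7f differs from let-7a by 1 base, and its count was 1.92, 5.06 and 1.41 times that of let-7a in the saline group and 4.78, 5.66 and 6.04 times in the morphine group. The ratio of let-7i to let-7a did not overlap, with 1.67, 2.33 and 1.36 in the saline group and 3.68, 4.91 and 5.18 in the morphine group.

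With all 6 libraries the order of the mean levels was the same in both groups. From high to low it was let-7f, let-7i, let-7g, let-7c, let-7a, let-7b, let-7e, let-7d and miR-98. In the saline group, however, let-7g was above let-7c in only 1 of 3 libraries, replicate 2. Without that library the saline means were 7633 CPM for let-7c and 5719 CPM for let-7g, so this pair changed places. These are levels in CPM, and the members have equal lengths. In the saline group the ranges of neighbours in this order were separate only for let-7a above let-7b, let-7e above let-7d and let-7d above miR-98. In the morphine group let-7i above let-7g, let-7g above let-7c and let-7c above let-7a were separate as well. let-7f and let-7i overlapped in both groups, although let-7f was higher in 3 of 3 libraries of each. let-7b and let-7e were not separate in either group.

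The hairpins of 3 members lie on the same strand as hairpins of the miR-99/100 and miR-125 families, and most guides of these neighbours were lower in the morphine group. Of the 5 neighbouring guides, 1 was called higher and 3 lower, beside 9.68% of all rows in each direction. An edgeR adjusted p under 0.05 was found for 3 of them and for 71 of all 1364 rows. Their median log2 fold change was -1.66. Mirlet7e lies 94 bases after Mir99b (chr17:17830188-17830257) and 367 bases before Mir125a (chr17:17830812-17830879), and each of these 3 guides has 1 hairpin. miR-99b-5p was at 20280, 5093 and 15331 CPM in the saline group and 2975, 3952 and 3844 CPM in the morphine group. miR-125a-5p was at 5426, 1659 and 4715 CPM in the saline group and 1131, 1537 and 1060 CPM in the morphine group. Both were thus lower in every morphine library than in any saline library, while let-7e from between them was higher in every one. The log2 fold changes were -1.92 for miR-99b-5p (SE 0.51, edgeR adjusted p = 0.0331), -1.66 for miR-125a-5p (SE 0.50, edgeR adjusted p = 0.0507) and 0.93 for let-7e.

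Mirlet7c-1 lies 656 bases from Mir99a (chr16:77598936-77599000) and 46522 bases from Mir125b-2 (chr16:77646273-77646343). miR-99a-5p was at 16540, 14354 and 19684 CPM in the saline group and 72209, 86160 and 94325 CPM in the morphine group, with a log2 fold change of 2.32 (SE 0.47, edgeR adjusted p = 0.00441). It rose as let-7c did, and its level in saline replicate 2 was like that in the other saline libraries. miR-125b-5p, which also comes from Mir125b-1 at 45114 bases from Mirlet7a-2, had a log2 fold change of -1.77 (SE 0.49, edgeR adjusted p = 0.0365). miR-100-5p, whose hairpin lies 5211 bases from Mirlet7a-2, was at 16004, 8794 and 14178 CPM in the saline group and 9183, 8139 and 9784 CPM in the morphine group and did not pass the test (log2 fold change -0.52, SE 0.45, edgeR adjusted p = 0.552). It was called lower without saline replicate 2, at -0.74 (SE 0.23), and with library totals in place of TMM, at -0.94 (SE 0.48). The mature sequences of miR-99a-5p and miR-100-5p differ at a single base. Their separate counts therefore also depend on how reads that match both were assigned, which is not given.

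With the GC trend removed, these signs were kept by let-7e at 0.26 (SE 0.40), miR-99b-5p at -1.32 (SE 0.40), miR-125a-5p at -1.74 (SE 0.41) and miR-99a-5p at 2.26 (SE 0.42). The sign of let-7a was not kept, at -0.63 (SE 0.40), beside miR-100-5p at -0.60 (SE 0.40) and miR-125b-5p at -1.85 (SE 0.41). The value of let-7e was then no longer called. Without saline replicate 2, let-7e was at 1.01 (SE 0.24), miR-99b-5p at -2.31 (SE 0.23) and miR-125a-5p at -2.03 (SE 0.23). The mature GC content was 63.6% in miR-99b-5p, 50% in the other 4 neighbours, and 40.9% in let-7c and let-7e.

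**Figure D4:**
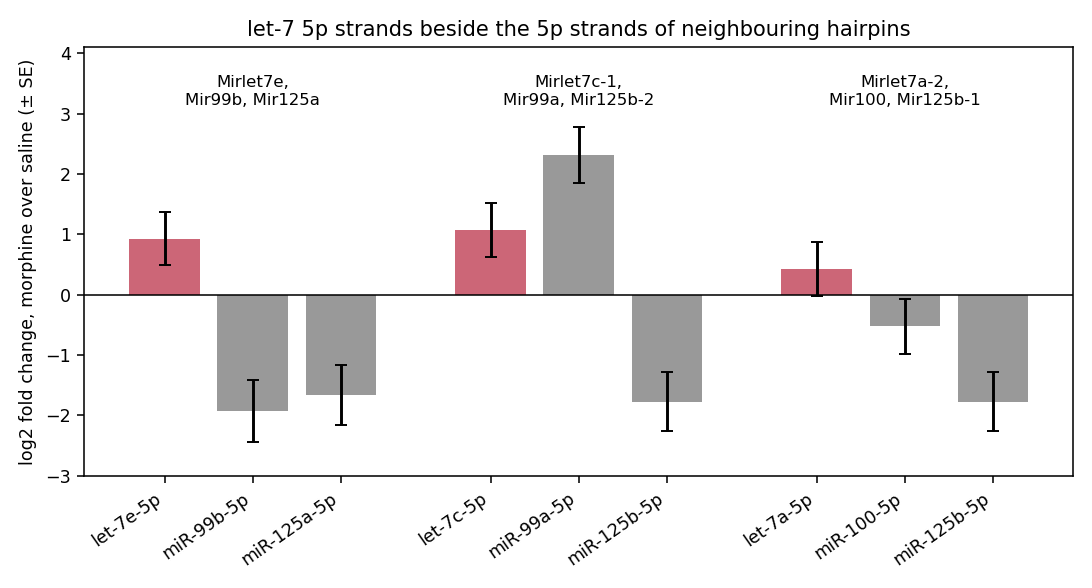
Log2 fold change, morphine over saline, ± SE, of let-7e, let-7c and let-7a (red) and of the guides of hairpins on the same strand nearby (grey), with the hairpins of each locus named above the bars. let-7e is at 0.93 between miR-99b-5p at -1.92 and miR-125a-5p at -1.66, while miR-99a-5p is at 2.32 beside let-7c at 1.07; miR-125b-5p has 2 hairpins and is drawn at both loci.

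The 3p strands of the same hairpins gave no shared direction. Of 11 listed, 3 were called higher (let-7f-1-3p, let-7g-3p and miR-98-3p) and 2 lower (let-7a-2-3p and let-7i-3p), beside 9.68% of all rows in each direction. An edgeR adjusted p under 0.05 was found for 0 of them. The counts of the called 3p strands were small, with 3, 6 and 4 for let-7f-1-3p and 5, 10 and 7 for let-7g-3p in the saline group. let-7d-3p, which was not called, had far more. It held 5012, 1321 and 7320 counts in the saline group and 4055, 3293 and 4032 in the morphine group. For let-7i, whose guide rose, the 3p strand had 28, 125 and 102 counts in the saline group and 58, 27 and 19 in the morphine group. The number of 5p counts for each 3p count was therefore 1682, 1011 and 742 in the saline group and 5472, 8999 and 15393 in the morphine group. For let-7e this ratio was 46.9, 85.1 and 41.8 in the saline group and 159, 289 and 269 in the morphine group. Both ratios were higher in every morphine library, and for let-7b, let-7d and let-7g the groups overlapped. The ratio of let-7d was low, at 1.34, 7.34 and 1.93 in the saline group and 4.93, 3.89 and 3.51 in the morphine group. For miR-98 the 3p strand had only 1, 8 and 0 counts in the saline group and 25, 28 and 31 in the morphine group. On these few counts its ratio went the other way. It was 440 and 301 in saline replicates 1 and 2 and undefined in saline replicate 3. In the morphine group it was 180, 95.9 and 90.7. Among the 1089 rows with a RefSeq mature sequence, let-7k was the only one outside the 9 members with the same seed, and it held at most 9 counts in any library.

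The miRNAs most like the family total across the 6 libraries, by Pearson's r of log2(CPM + 1) over 204 miRNAs with a mean of at least 100 CPM, were miR-488-3p (r = 0.999), miR-218-5p (r = 0.996), miR-376b-5p (r = 0.993), miR-382-3p (r = 0.993) and miR-598-3p (r = 0.988). These values are a description over libraries that fall into groups. Each of the 5 miRNAs was intermediate in saline replicate 2, as was the family total. miR-218-5p, for example, was at 7674, 20550 and 6258 CPM in the saline group and 32380, 29950 and 37561 CPM in the morphine group.

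Markers of cell types were measured beside the family, and none of the lists was at 0. The summed level of the 4 neuronal miRNAs overlapped between the groups, at 61359 to 73270 CPM in the saline group and 70320 to 106844 CPM in the morphine group. Most of this sum was miR-128-3p, at a log2 fold change of 0.47. Of the 4, 1 was called lower, miR-124-3p at -1.88, with miR-138-5p at -0.32 and miR-137-3p at -0.24. The 2 oligodendrocyte, 3 microglial and leukocyte, 2 mural and 3 muscle miRNAs overlapped as well in their sums, with 1 muscle miRNA called lower. The 2 endothelial miRNAs summed to 1485 to 5002 CPM in the saline group and 10984 to 16264 CPM in the morphine group, and the 3 erythroid miRNAs to 208 to 311 CPM and 358 to 571 CPM, with 1 called higher in each list. Within these lists the single miRNAs differed in sign, miR-126a-3p being at a log2 fold change of 2.42 and miR-126a-5p at -0.96, and miR-451a at 1.57, miR-144-3p at -1.31 and miR-486a-5p at -0.20. The 3 miRNAs of ciliated cells and choroid plexus summed to 1945 to 2766 CPM in the saline group and 939 to 991 CPM in the morphine group, with miR-204-5p called lower at -1.50, miR-34c-5p at -0.29 and miR-449a-5p at 0.69. The part of these cell types in the difference of the let-7 family was not tested.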

How the data were processed

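Small RNA libraries of NAc tissue from 3 saline and 3 morphine samples were analysed. The authors removed adapter, poly-N and low-quality reads, set length limits, used Bowtie to filter out other RNAs and repeats, and matched what was left to miRBase. Raw counts for each mature miRNA were deposited by the authors with TPM values, the latter equal to each count scaled to its library total and not tested. The miRBase release, genome build and rule for multiple matches are not given in the sources used here. Groups and replicates came from the sample titles, and 0 columns were left unused.

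Counts were TMM-scaled and tested with edgeR 4.0.16 in R 4.3.3, without covariates, over all 1364 rows with at least 1 count. Standard errors and intervals used edgeR's moderated dispersion. Of the rows, 1089 matched a RefSeq mature sequence, with 93.9% of the counts. The GC trend was a quadratic fitted per library on 357 miRNAs outside the family with at least 300 counts. Members, lists and tests were chosen with earlier results of these data known. All 9 members, 3 related lists and the 5 most similar miRNAs were named. The test was checked on simulated counts in which each row was drawn independently. These held no library that stood apart as saline replicate 2 does, so the check does not cover its effect on the calls. Nothing in the labels says how mice were divided among libraries. The tests therefore take the library as the unit and cannot be read as tests over mice. The edgeR p-values rest on a dispersion moderated over rows, and the permutation p-values on 3 against 3 libraries.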

Additional observations from a re-analysis of the deposited data

How the results depend on the processing

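Over 17 alternatives, let-7g and let-7i were called higher in every one and let-7b in 0. miR-98 was called in 12, let-7c in 10, let-7f in 9, let-7e in 6, and let-7a and let-7d in 1 each. Of all rows tested, 13.1% to 37% were called in either direction over these alternatives, against 19.4% in the main fit. The share was 21.3% with the GC trend removed, 37% without saline replicate 2 and 13.3% to 17.8% without any other library. The count of members called, 6 of 9, was 2 with the GC trend removed and 2 to 8 when 1 library was left out, lowest without saline replicate 1, 3 without saline replicate 3, morphine replicate 1 or morphine replicate 3, and highest without saline replicate 2. The count at an adjusted p under 0.05, 1 with all libraries, was 2 with library total or upper quartile scaling, with scaling without the 9 members or on abundant miRNAs, and with miRBase miRNAs only. It was 3 with the DESeq2 Wald test and 0 with a minimum of 10 counts. When 1 library was left out it was 8 without saline replicate 2 and 0 without any other library. The rows of the whole table at that threshold moved as well, from 71 with all libraries. They were 100 to 160 with the settings that gave 2 members, 156 with DESeq2 and 28 with a minimum of 10 counts. They were 386 without saline replicate 2 and 0 to 94 without any other library. The log2 ratio of the family total was 1.17 to 1.82 when 1 library was left out, against 1.29 with all, and 1.08 to 1.41 over the other scalings. It was not computed with the GC trend removed or with a replicate block. The GC correction reversed let-7a to -0.63 and let-7d to -0.095, and relative to the family total let-7f to -0.19 and miR-98 to -0.14, where let-7f was also -0.060 to 0.54 over the libraries left out, below 0 without saline replicate 3. The count called relative to the family, 1 with all libraries, was 2 against the sum of the other 8 members and 0 to 5 when 1 library was left out, 5 without saline replicate 2 and 0 without any other library. The causes were not tested.

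The correlations of deviations between libraries of the same replicate number were -0.23, -0.29 and 0.14. With 3 libraries in a group the deviations are not independent. The values therefore cannot show whether replicate numbers mark paired samples. With a replicate block, 0 members had an adjusted p under 0.05 and 0 were called relative to the family. Of 1364 rows, 179 were called against 264 without it, and 32 had an adjusted p under 0.05 against 71. Every member had at least 440 counts in each library, and the 3 libraries of a group limit the precision.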
